A study of Mus musculus with 5 samples.

Results

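The EGF receptor family and its ligands were examined through 10 genes, taken by symbol from a table of 22869 genes, each by the transcript row with the highest mean count. They were the EGF receptor ligands Areg, Ereg, Hbegf, Tgfa, Btc and Egf, the neuregulin Nrg1, and the receptors Egfr, Erbb2 and Erbb3. RNA had been sequenced from intervillus areas of the proximal jejunum, cut out by laser from sections of mice at postnatal day 0. These areas between villi normally hold the proliferating epithelium. The 2 mutant libraries, numbered 4 and 6, carried the genotype Dnmt1 L/L; VillinCre, in which both Dnmt1 alleles are floxed and Cre is driven by the gut epithelial villin promoter, so that cells outside the epithelium keep the gene. The 3 control libraries, numbered 1, 2 and 3, came from littermates labelled Dnmt1 L/+, with 1 floxed allele and no Cre named. On neighbouring sections, Ki67-negative areas were picked in mutants but Ki67-positive areas in controls, so genotype and this choice cannot be told apart in any comparison below. The labels do not say that each library is a separate animal, and the p-values then reflect library-to-library spread alone, some of which may be technical.

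EGF family ligands are made as membrane-bound precursors, released by proteases of the ADAM family, and bind receptors on the same or neighbouring cells. EGFR binds amphiregulin, epiregulin, HB-EGF, TGF-alpha, betacellulin and EGF. ERBB3 and ERBB4 bind neuregulins, ERBB2 binds no known ligand and serves as the partner of the others, and ERBB3 has little kinase activity of its own. Paired receptors signal through RAS, RAF and the kinase ERK and through PI3 kinase and AKT, and in the intestine this signalling drives proliferation of progenitor cells and repair after injury. In the adult mouse gut Nrg1 is known to be made largely by cells of the mesenchyme around the crypts.

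The libraries held 8730268 and 10260760 reads in mutants 4 and 6, against 13356901, 13101286 and 10530200 reads in controls 1 to 3, counted with 1 row per gene. Dnmt1 was lower in both mutants (37.8 and 40.5 CPM, counts scaled to library size) than in the controls (95.1 to 128 CPM), and Mki67, the gene of the stained protein, was 511 and 506 CPM against 773 to 1022 CPM. Xist had 10179 and 8277 counts in the mutants and 42 to 72 in the controls, while the Y-linked Ddx3y had 1 and 0 counts in the mutants and 757 to 791 in the controls. By these sex-linked transcripts both mutant libraries were female and all controls male. Sex and genotype therefore cannot be told apart in any comparison below. Of 14572 genes tested, 891 (6.11%) were higher and 608 (4.17%) lower in the mutants at an adjusted p under 0.05 (edgeR's quasi-likelihood test, Benjamini-Hochberg adjustment over all 19353 rows tested), 10.3% in all. Every adjusted p below is from this test unless another is named, and every log2 fold change is mutant over control with its SE. Epithelial markers were present in all libraries, and the one with the most reads, Epcam, an epithelial adhesion molecule, was at 878 and 873 CPM in mutants 4 and 6 and 974 to 1107 CPM in controls.

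Other cell types' markers moved with the groups. All 12 markers of mesenchyme and smooth muscle were above every control in both mutants, as were 21.7% of all genes, and 7 of the 12 were called higher, as were 6.11% of all genes. Their summed level was 1997 and 1859 CPM in mutants 4 and 6 and 1215 to 1331 CPM in the controls, and the one with the most reads (not scaled to length, here and for the next lists), the collagen gene Col3a1, was 459 and 465 CPM against 291 to 318 CPM. Of 10 villus enterocyte markers, 5 were called higher (6.11% of all genes) and 6 lay above every control in both mutants (21.7% of all genes). Their sums were 52859 and 53802 CPM in the mutants and 26583 to 42042 CPM in the controls. The one with the most reads was the apolipoprotein gene Apoa4, at 17434 and 14973 CPM against 4718 to 8347 CPM. Of 9 immune markers 1 was called higher, beside 6.11% of all genes. It was the macrophage receptor Csf1r, at 175 and 160 CPM in the mutants and 41.4 to 70.1 CPM in the controls. The summed level of the 9 markers, Csf1r among them, was 310 and 281 CPM against 125 to 186 CPM. Csf1r supplied most of that gap, and the other 8 were not called. In 5 of the 9, both mutants lay above every control, as in 21.7% of all genes. Of 10 enteric neuron and glia markers, 6 were tested and 2 called higher, beside 6.11% of all genes. The sums of the 10 were 55.2 and 58.6 CPM in the mutants and 22.3 to 33.4 CPM in the controls. The one with the most reads, the receptor Ret, was 23.8 and 26.5 CPM against 10.4 to 22.0 CPM. Of 8 endothelial markers 0 were called by edgeR's quasi-likelihood or exact test, limma-voom or DESeq2. In the quasi-likelihood test 3 of the 8 had an unadjusted p under 0.05, beside 25.6% of all genes. The sum of the 8 was 239 and 232 CPM in the mutants and 171 to 205 CPM in the controls. The one with the most reads, Pecam1, was 61.4 and 53.3 CPM against 42.1 to 51.3 CPM. No marker of any list was at 0 in all 5 libraries. Of 10 epithelial markers 9 were tested. The keratin gene Krt18 was called higher (335 and 279 CPM in the mutants, 159 to 189 CPM in the controls; adjusted p = 0.00255) and the intestinal transcription factor gene Cdx2 lower (28.3 and 28.2 CPM against 43.5 to 65.1 CPM; adjusted p = 0.00454). In 5 of the 9 both mutants lay below every control and in 1 above, where 43.6% of all genes had groups that did not overlap. The summed level of the 10 was 4084 and 3919 CPM in the mutants and 4023 to 4260 CPM in the controls. Krt18 and Cdx2 were named after their values were seen.

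All 10 family genes passed the filter on low counts. The ligands Areg, Ereg and Nrg1 rose in the mutants and the receptor Erbb3 fell. The other 6 did not pass the test. That is 3 of 10 higher, beside 6.11% of all genes, and 1 of 10 lower, beside 4.17%. The members were chosen with earlier results of these data known, so shares of the 10 are descriptions only. Both mutants exceeded every control in 3 members and fell short of every control in 3, 6 of 10 in all, where 43.6% of all genes had groups that did not overlap in CPM. The median log2 fold change of the 10 was 0.10, and that of all genes tested was -0.01.

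**Figure D1:**
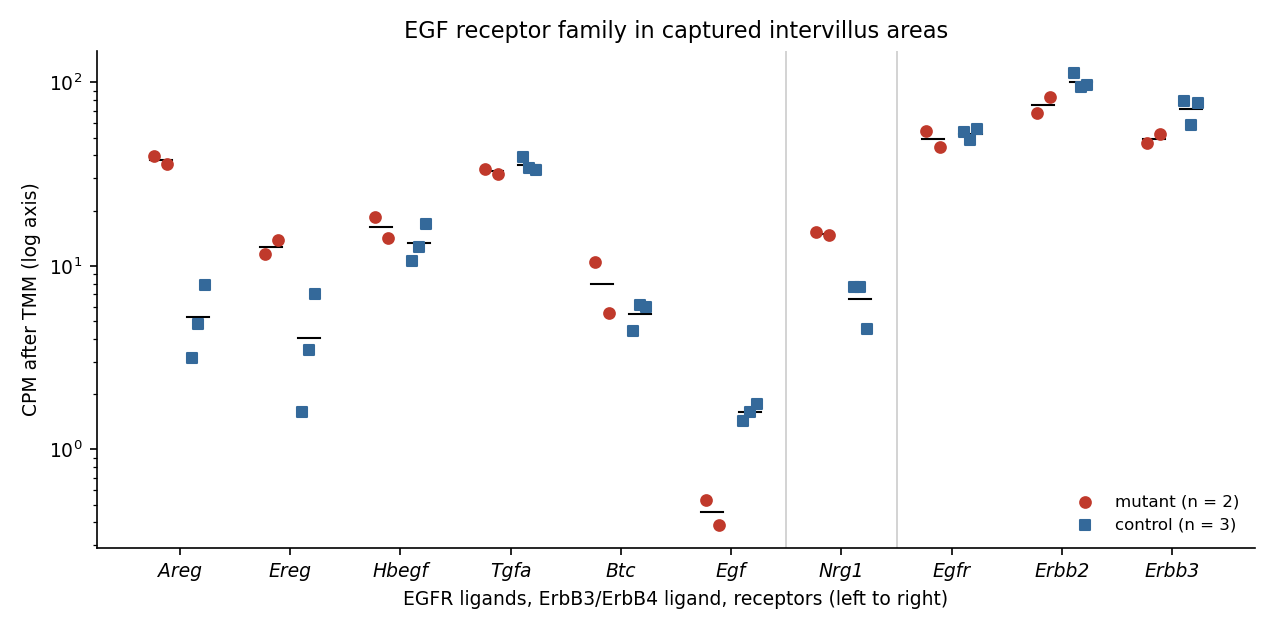
CPM after TMM normalization (log axis) of the 10 genes in each library, with mutants as red circles, controls as blue squares and a black line at each group's mean. Areg, Ereg and Nrg1 lie higher in both mutants than in any control, while Egf, Erbb2 and Erbb3 lie lower in both mutants than in any control.

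Areg had the largest log2 fold change in counts of the family, and its promoter is shown with that of Tgfa because these were the most abundant EGF receptor ligands in mutants and in controls on the per-length scale given below. The 250 bases before the transcription start were taken from RefSeq (GRCm38.p6), where 6 of the 10 members had an entry. They lie at chr5:91139349-91139598 for Areg and chr6:86194972-86195221 for Tgfa, both on the plus strand, and are written 5′ to 3′ with motif matches in capitals.
Areg: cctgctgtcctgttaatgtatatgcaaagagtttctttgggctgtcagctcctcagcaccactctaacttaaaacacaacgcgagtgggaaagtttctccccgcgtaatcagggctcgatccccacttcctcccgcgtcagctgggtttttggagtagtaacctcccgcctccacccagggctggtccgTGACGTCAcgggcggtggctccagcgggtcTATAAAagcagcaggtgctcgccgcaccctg
Tgfa: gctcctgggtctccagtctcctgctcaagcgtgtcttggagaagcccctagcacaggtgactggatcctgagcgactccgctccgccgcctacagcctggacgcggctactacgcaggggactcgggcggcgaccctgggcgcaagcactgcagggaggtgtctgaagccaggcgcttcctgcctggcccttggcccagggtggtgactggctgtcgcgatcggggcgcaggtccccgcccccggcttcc
Motifs were searched on both strands, namely TGACGTCA (the cAMP response element), TGANTCA and TATAAA (the TATA box). TGANTCA, with any base at N, is looser than the AP-1 element bound by Fos and Jun proteins, and includes it. The Areg window held TGACGTCA starting 61 bases and TATAAA starting 31 bases before the transcription start, with no overlap between them, and no TGANTCA. The Tgfa window held none of the 3, nor did the windows of Btc, Egf, Egfr or Erbb2. No window was examined for Ereg, Hbegf, Nrg1 or Erbb3, which include every called member but Areg. Called and uncalled members therefore cannot be compared for these motifs. Of 32851 promoter windows of this length, 1.55% held TGACGTCA, 6.75% TGANTCA, 12.4% TATAAA, and 39 windows (0.119%) held both TGACGTCA and TATAAA. The Areg window had 15 CG dinucleotides, the sites of DNA methylation, and the Tgfa window 19, beside a median of 6 over all windows; methylation itself was not measured. A match describes these letters only.

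Areg encodes amphiregulin, a low-affinity EGF receptor ligand. It had 449 and 464 counts (39.7 and 35.8 CPM) in mutants 4 and 6, against 57, 82 and 112 counts (3.14, 4.85 and 7.89 CPM) in controls 1 to 3. Both mutants stood well above the highest control, and control 3 was the highest of the controls. Its log2 fold change of 2.85 ± 0.28 (95% interval 2.24 to 3.46; adjusted p = 3.05e-05) is a 7.21-fold rise. Leaving out any 1 library gave log2 fold changes of 2.57 to 3.24, all called. On the deposited FPKM (by name scaled to transcript length and library size) Areg was 29.1 and 31.4 in the mutants and 4.09, 5.83 and 7.04 in the controls. There limma gave an adjusted p of 0.067 with a pseudocount of 1, 0.0534 with a pseudocount of 0.1, and 0.002 among rows with a mean FPKM of at least 1. The FPKM of a row are not a fixed multiple of its CPM. For Areg, mutant 4 had 39.7 CPM and 29.1 FPKM, but control 1 had 3.14 CPM and 4.09 FPKM.

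Ereg encodes epiregulin, a ligand of EGFR and ERBB4. It had 131 and 180 counts (11.6 and 13.9 CPM) in mutants 4 and 6, against 29, 59 and 100 counts (1.60, 3.49 and 7.04 CPM) in controls 1 to 3. The groups did not overlap, but control 3 was several times as high as control 1, and it was also the highest control for Areg. The rise was 1.68 ± 0.42 on the log2 scale (95% interval 0.76 to 2.59; adjusted p = 0.0226), or 3.20-fold. The call was lost without mutant 4 (adjusted p = 0.0598), mutant 6 (0.110), control 1 (0.0600) or control 2 (0.0619), and the log2 fold change stayed between 1.28 and 2.33 over all 5 omissions. On FPKM, Ereg was 3.10 and 2.67 in the mutants and 0.320, 0.913 and 1.12 in the controls, with limma adjusted p-values of 0.0524 to 0.246.

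Tgfa encodes TGF-alpha, which is made by intestinal epithelium. It was 33.7 and 31.8 CPM in mutants 4 and 6, against 39.2, 34.1 and 33.2 CPM in controls 1 to 3. The groups overlapped. The log2 fold change was -0.12 ± 0.15, with a 95% interval of -0.45 to 0.21, so a change the size of that of Areg, Ereg or Nrg1 lies outside the interval (adjusted p = 0.674).

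Hbegf, which encodes a ligand that binds heparin, was 18.5 and 14.3 CPM in the mutants and 10.6, 12.6 and 16.8 CPM in the controls. The groups overlapped, with a log2 fold change of 0.30 ± 0.23 (95% interval -0.21 to 0.80; adjusted p = 0.455). Btc, which encodes betacellulin, was 10.4 and 5.56 CPM in the mutants and 4.40, 6.10 and 5.98 CPM in the controls. Mutant 4 alone lay above the controls, and the log2 fold change of 0.54 ± 0.32 did not pass the test (95% interval -0.15 to 1.23; adjusted p = 0.31). It was 0.017 without mutant 4. On FPKM both mutants lay above every control for Hbegf (7.07 and 5.35 against 5.13 to 5.23) and Btc (3.64 and 1.95 against 1.27 to 1.77). Neither was called by limma there (adjusted p 0.286 to 0.667).

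Egf, which encodes EGF itself, had the fewest reads of the members in every library. There were 6 and 5 counts (0.531 and 0.386 CPM) in the mutants, against 26, 27 and 25 counts (1.43, 1.60 and 1.76 CPM) in the controls. Both mutants lay below all controls. The log2 fold change was -1.79 ± 0.60 (95% interval -3.09 to -0.49), which did not pass the test over all genes (adjusted p = 0.078); edgeR's exact test gave an adjusted p of 0.0289. The few counts limit this value.

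Nrg1 had 172 and 191 counts (15.2 and 14.7 CPM) in mutants 4 and 6, against 140, 129 and 64 counts (7.71, 7.63 and 4.51 CPM) in controls 1 to 3. The mutants were close together and both above every control. The rise was 1.17 ± 0.26 on the log2 scale (95% interval 0.61 to 1.73; adjusted p = 0.0115), or 2.25-fold. It was no longer called without mutant 4 (adjusted p = 0.072) or mutant 6 (0.0532), nor on FPKM, where Nrg1 was 7.23 and 5.80 in the mutants and 3.08, 3.99 and 1.19 in the controls (limma adjusted p 0.155 to 0.384).

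Since mesenchymal markers were higher in the same libraries, Nrg1 was also set against their sum. Per 1000 CPM of the mesenchyme and smooth muscle marker sum, Nrg1 was 7.62 and 7.93 CPM in the mutants and 6.34, 5.79 and 3.39 CPM in the controls, a ratio of means of 1.50. The marker sum itself was 1.50 times as high in the mutants. Areg, per 1000 CPM of the same sum, was 19.9 and 19.3 CPM in the mutants and 2.58, 3.68 and 5.93 CPM in the controls. Per 1000 CPM of the villus enterocyte sum, Areg was 0.751 and 0.665 CPM in the mutants and 0.0956, 0.115 and 0.297 CPM in the controls, a ratio of means of 4.19, and the mutants again lay above all controls. Ereg, per 1000 CPM of the enterocyte sum, was 0.219 and 0.258 CPM in the mutants and 0.0487, 0.0831 and 0.265 CPM in the controls, and the groups overlapped. In bulk samples, more cells of a type and more RNA per cell cannot be told apart, and the part of these cell types in the rises was not tested.

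**Figure D2:**
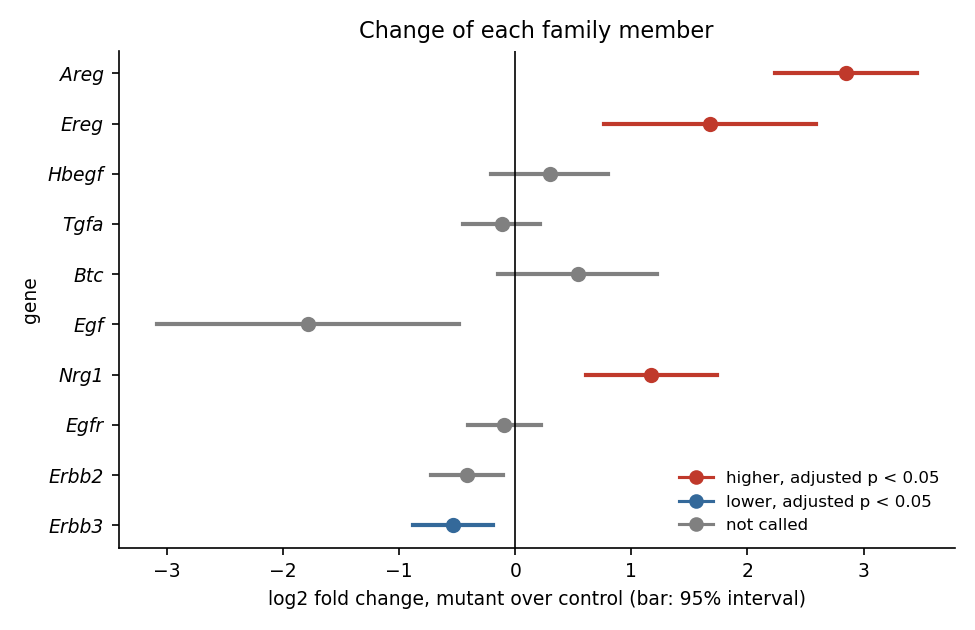
Log2 fold change, mutant over control, of each family member with its 95% interval (log2 fold change ± SE times the t quantile). Red marks an adjusted p under 0.05 and higher (Areg 2.85, Ereg 1.68, Nrg1 1.17), blue an adjusted p under 0.05 and lower (Erbb3 -0.54), and grey the members that did not pass.

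Among the receptors, Erbb3 fell and Erbb2 had a similar value that did not pass the test. Erbb3 encodes the neuregulin receptor that signals through PI3 kinase when paired with ERBB2. It was 46.6 and 52.2 CPM in the mutants, against 79.3, 58.3 and 77.4 CPM in the controls. Both mutants lay below all controls, with control 2 nearest to them. The log2 fold change was -0.54 ± 0.16 (95% interval -0.88 to -0.19; adjusted p = 0.0493). This adjusted p lies at the threshold: the call was lost under 12 of 16 alternatives, among them the omission of mutant 4 (0.287), mutant 6 (0.134), control 1 (0.186) or control 3 (0.0863), while the log2 fold change stayed between -0.65 and -0.46 over all 16. Erbb2 was 68.0 and 83.4 CPM in the mutants and 112, 94.0 and 96.4 CPM in the controls. Its groups did not overlap in CPM either, and its log2 fold change was -0.41 ± 0.14 (95% interval -0.72 to -0.10; adjusted p = 0.0859). On FPKM the groups overlapped for Erbb2 (12.0 and 15.6 in the mutants, 15.2 to 22.9 in the controls; limma adjusted p 0.371 to 0.539). Per 1000 CPM of the epithelial marker sum, Erbb3 was 11.4 and 13.3 CPM in the mutants and 19.7, 13.8 and 18.2 CPM in the controls, and Erbb2 16.7 and 21.3 CPM against 27.9, 22.3 and 22.6 CPM. On that scale too both mutants lay below every control. Of the 9 epithelial markers tested, 5 also lay below every control in both mutants. Among all genes, 43.6% had groups that did not overlap, whichever way they differed. The part of the epithelial markers in these values was not tested. Whether Erbb2 and Erbb3 differ in their change was not tested.

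Egfr, the receptor of the ligands above, was 54.1 and 44.7 CPM in the mutants and 53.5, 48.8 and 55.7 CPM in the controls. The mutants lay on both sides of the lowest control. The log2 fold change was -0.09 ± 0.15 (95% interval -0.41 to 0.22; adjusted p = 0.732), and its sign turned on FPKM (0.080 to 0.090) and without mutant 6 (0.034). Egfr had a second row in the table for a shorter transcript. In GENCODE M21 the row used, NM_207655, encodes 1210 codons in 28 exons, and the shorter one, NM_007912, 655 codons in 16 exons; 74.7% of the exon bases of the shorter transcript are shared, so both rows can count the same reads. The shorter row was 17.3 and 12.5 CPM in the mutants and 21.3, 12.6 and 19.8 CPM in the controls, with a log2 fold change of -0.27 ± 0.25, not called. All the other members had a single row.

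The remaining genes of the family were scarce, apart from Nrg4. Nrg4, a neuregulin that binds ERBB4, was 7.17 and 8.41 CPM in the mutants and 12.0, 11.6 and 13.0 CPM in the controls. Both mutants lay below all controls, with a log2 fold change of -0.64 ± 0.23 that did not pass the test (adjusted p = 0.0924). Erbb4, its receptor, had 0 counts in both mutants and 0, 4 and 6 counts in the controls. Epgn, which encodes the EGF receptor ligand epigen, had 4 and 0 counts in the mutants and 1, 6 and 8 in the controls. Nrg2 had 0 and 6 counts in the mutants and 1, 0 and 0 in the controls, and Nrg3 had 1 and 0 against 0, 2 and 0. These 4 genes did not pass the filter, and no difference was detectable at this depth.

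The order of the members' levels was taken from the deposited FPKM, which are per transcript length. Since FPKM are not a fixed multiple of CPM within a row, the order holds for that scale only. In controls, Erbb2 (19.0 ± 3.84 FPKM; SD, n = 3) and Erbb3 (16.8 ± 2.70) led the family with overlapping ranges, and both lay above all other members. Egfr (8.26 ± 1.66) and Tgfa (8.26 ± 1.14) followed and overlapped each other. Below Tgfa came Areg (5.65 ± 1.48) and Hbegf (5.19 ± 0.0582), which overlapped, then Nrg1 (2.75 ± 1.43) and Btc (1.55 ± 0.256), which also overlapped, then Ereg (0.783 ± 0.414) and Egf (0.367 ± 0.0925), whose ranges overlapped too.

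In mutants the order differed at the top. Areg averaged 30.3 ± 1.63 FPKM (SD, n = 2) and lay above Erbb2 (13.8 ± 2.55) in both libraries. Erbb2 overlapped Erbb3 (11.4 ± 1.66), and Egfr (8.70 ± 0.621) lay below these. Nrg1 (6.51 ± 1.01), Tgfa (6.25 ± 1.05) and Hbegf (6.21 ± 1.22) overlapped one another, below Egfr and above Ereg. Ereg (2.89 ± 0.305) and Btc (2.79 ± 1.20) overlapped, and Egf (0.0465 ± 0.0109) was last.

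The 6 EGF receptor ligands together had 50.0 and 46.9 FPKM in the mutants, against 21.2, 21.6 and 22.6 FPKM in the controls. Most of the gap was Areg. It made up 58.3% and 67.0% of the ligand sum in the mutants and 19.3%, 26.9% and 31.1% in the controls. Tgfa made up 14.0% and 11.7% in the mutants and 45.2%, 34.8% and 34.0% in the controls. Areg was thus 4.16 and 5.71 times Tgfa in the mutants, but 0.428, 0.775 and 0.915 times Tgfa in the controls, and no control had more Areg than Tgfa. The 3 receptors together had 31.4 and 36.5 FPKM in the mutants and 52.5, 40.1 and 39.7 FPKM in the controls. These sums, shares and ratios hold on the FPKM scale only and are descriptions, with no test.

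**Figure D3:**
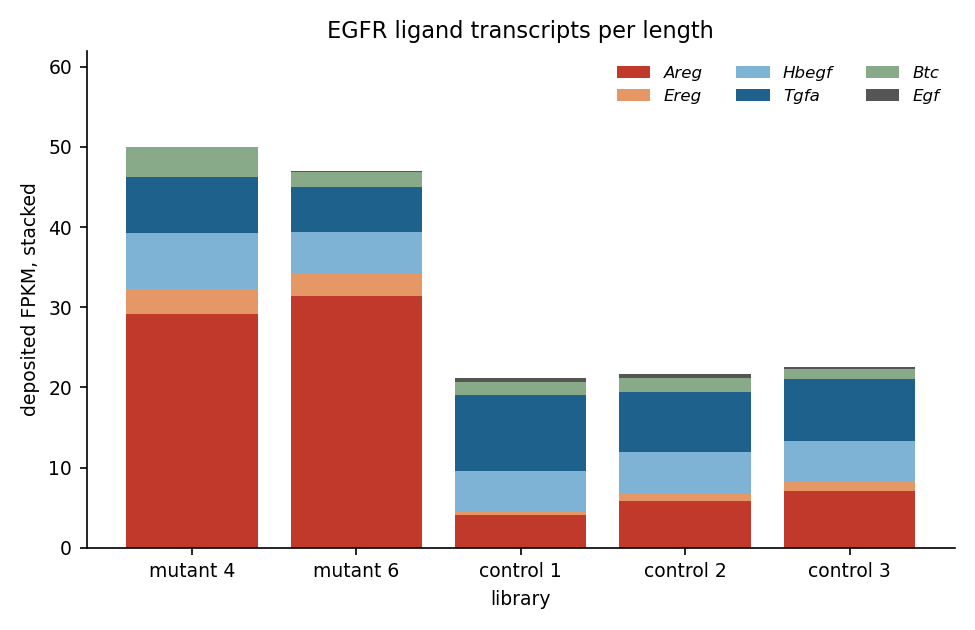
Deposited FPKM of the 6 EGF receptor ligands stacked for each library, mutants 4 and 6 at the left and controls 1 to 3 at the right. The stacks reach 50.0 and 46.9 FPKM in mutants and 21.2 to 22.6 FPKM in controls, and the red Areg segment is the largest in both mutants.

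Ligand release genes mostly did not pass the test. Of 12 listed and tested, 1 rose and 11 did not pass (8.33% called, beside 10.3% of all genes; median log2 fold change 0.14). The one that rose was Adam9, a membrane metalloprotease that can cleave HB-EGF, at 40.4 and 44.0 CPM in the mutants and 21.8, 27.2 and 23.9 CPM in the controls (log2 fold change 0.80 ± 0.16; adjusted p = 0.00604). It was not called without mutant 6. The nearest to the threshold after it was Adam12, at 8.58 and 7.95 CPM in the mutants and 5.18, 5.09 and 4.86 CPM in the controls (0.71 ± 0.26; adjusted p = 0.108). Adam17, the main sheddase of amphiregulin and TGF-alpha, was added after its values were seen; it was 45.0 and 52.9 CPM in the mutants and 40.8, 44.9 and 38.2 CPM in the controls, with no overlap but a log2 fold change of 0.25 ± 0.15 (adjusted p = 0.318).

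Of 26 inhibitors of the receptors or of ERK, all tested, 1 rose, 1 fell and 24 did not pass (7.69% called, beside 10.3% of all genes; median log2 fold change -0.04). Among the 24 were Dusp4 (-0.33 ± 0.33), Dusp5 (-0.54 ± 0.43), Dusp7 (0.27 ± 0.25) and Spry1 to Spry4 (-1.06 to 0.23). These 24 include genes named here after their values were seen. Dusp6, a phosphatase of ERK, rose to 54.1 and 37.7 CPM in the mutants, against 12.5, 23.4 and 15.1 CPM in the controls (1.43 ± 0.24, adjusted p = 0.00198). It was called without any 1 of the 5 libraries. Lrig3, of the LRIG family of membrane proteins, fell to 20.5 and 21.6 CPM in the mutants, against 41.7, 39.9 and 32.2 CPM in the controls (-0.85 ± 0.17; adjusted p = 0.0063), and the call was lost without mutant 4.

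Of 33 signal relay genes listed, 32 were analysed, of which 1 rose and 31 did not pass (3.13% called, beside 10.3% of all genes; median log2 fold change -0.05). Gab1, a docking protein that links receptors to PI3 kinase, was 98.6 and 91.4 CPM in the mutants and 59.2, 62.6 and 63.0 CPM in the controls. The groups were well apart, at a log2 fold change of 0.62 ± 0.13 (adjusted p = 0.00664), but the call was lost without mutant 4. Stat3, a transcription factor activated by several receptors, was 116 and 109 CPM in the mutants and 83.6, 80.9 and 89.4 CPM in the controls (0.41 ± 0.12; adjusted p = 0.0544), and it passed with RLE or upper-quartile scaling.

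Some transcripts known to respond to ERK rose. Of 19 listed, 18 were tested, of which 5 rose and 13 did not pass (27.8% called, beside 10.3% of all genes; median log2 fold change 0.62, beside -0.01). At an unadjusted p under 0.05 there were 11 of 18, beside 25.6% of all genes. In 10 of the 18 both mutants exceeded every control, beside 21.7% of all genes. Among the 13 that did not pass were Myc (-0.22 ± 0.26), Fosl1 (0.11 ± 0.66), Dusp1 (0.09 ± 0.33) and Ier3 (0.23 ± 0.26). Ccnd1 (0.47 ± 0.16), Etv5 (0.69 ± 0.26) and Etv4 (1.14 ± 0.57) did not pass either. These uncalled genes were named after their values were seen. The list was chosen with earlier results of these data known, so these shares are descriptions only. Phlda1 was 44.6 and 34.1 CPM in the mutants and 13.0, 14.0 and 11.2 CPM in the controls (1.63 ± 0.18; adjusted p = 9.24e-05). Egr1, an early response transcription factor, was 70.8 and 79.6 CPM in the mutants and 22.1, 36.0 and 32.9 CPM in the controls (1.31 ± 0.19; adjusted p = 0.000576).

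The other 3 are transcription factors that many stress signals also induce. Atf3 was 26.2 and 24.2 CPM in the mutants and 3.52, 3.25 and 9.37 CPM in the controls (2.24 ± 0.35; adjusted p = 0.0012). Fos was 8.76 and 11.2 CPM in the mutants and 1.87, 4.38 and 3.17 CPM in the controls (1.67 ± 0.35; adjusted p = 0.00757). Jun was 68.3 and 57.0 CPM in the mutants and 37.4, 35.0 and 48.7 CPM in the controls (0.64 ± 0.17; adjusted p = 0.0267). Phlda1, Egr1 and Atf3 were called without any 1 library, Fos was lost without mutant 6, and Jun was called in 1 of the 5 omissions, that of control 3. The list rests on transcripts and holds no measure of receptor or ERK activity. The higher levels of mesenchymal and enterocyte markers and of Csf1r given above occur in the same libraries, and their part was not tested.

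**Figure D4:**
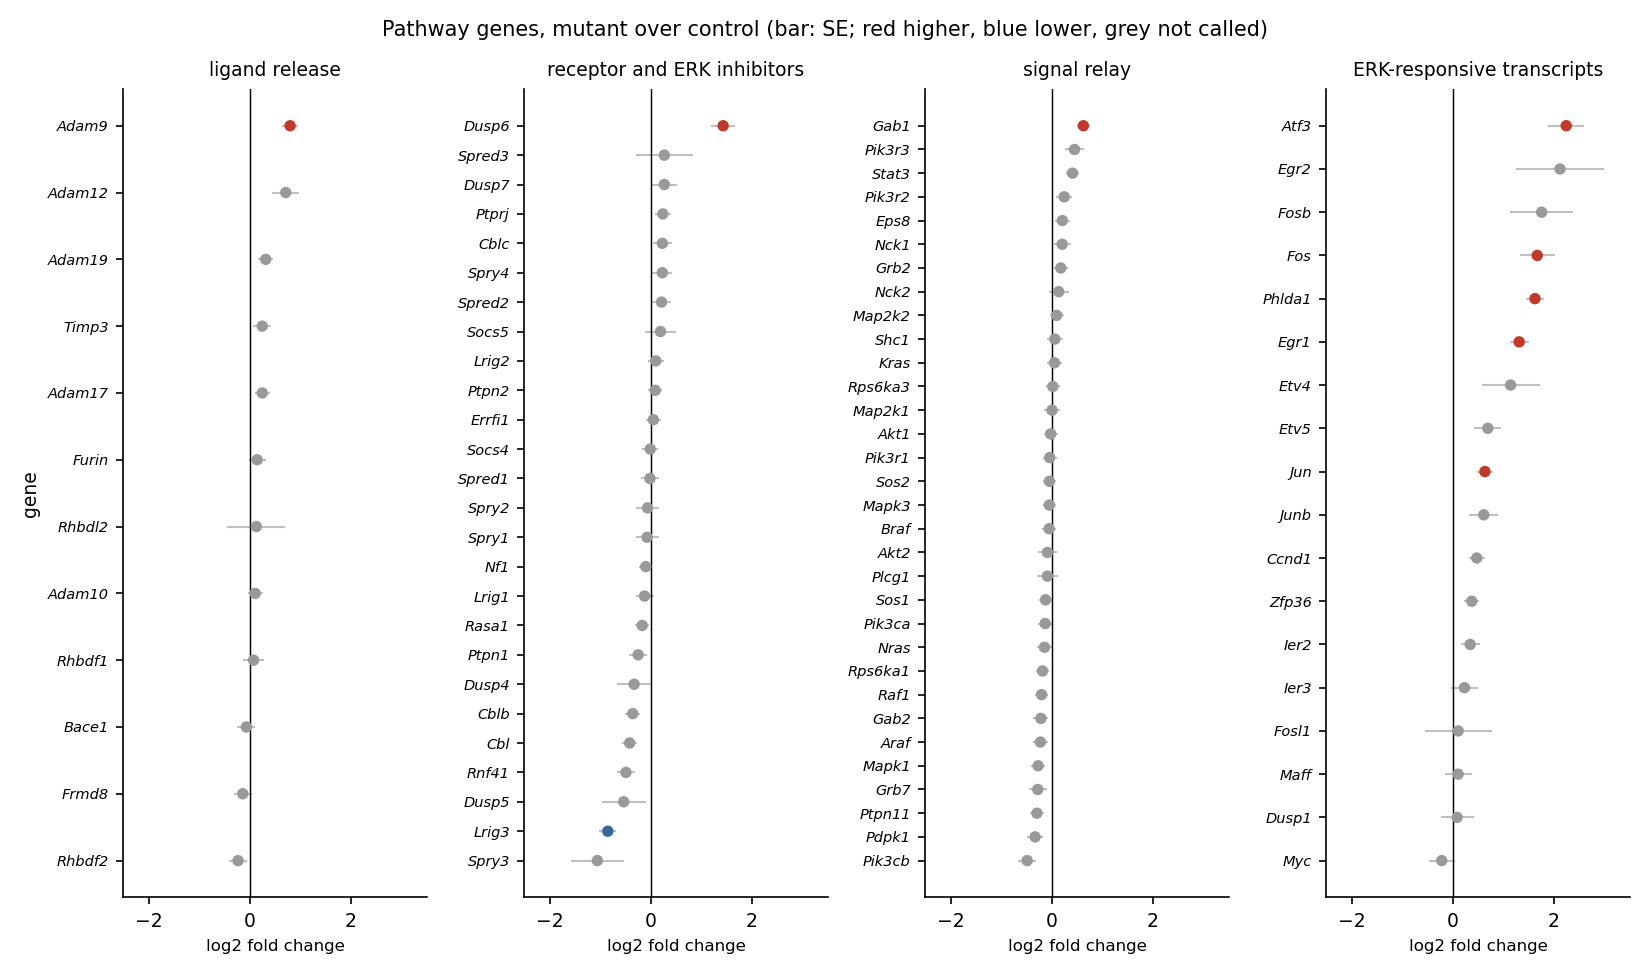
Log2 fold change, mutant over control, of every tested gene of the 4 pathway lists, with bars of 1 SE; red was called higher, blue lower and grey not called. Called genes number 1 of 12 for ligand release, 2 of 26 for inhibitors, 1 of 32 for signal relay and 5 of 18 for ERK-responsive transcripts.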

How the data were processed

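Per the labels' protocols, RNA (2.3 to 33.3 ng per sample) from laser-captured cells was amplified (Ovation RNA-Seq System V2) and read as single reads of 100 bp. Raw counts of reads for each RefSeq transcript and an FPKM table with the same rows are as deposited by the authors. Within a row, FPKM are not a fixed multiple of CPM, so results on the counts and on FPKM can differ. The build mm9 and the program edgeR are named, per the submitters' processing notes; for the aligner and counter, nothing is given in the sources used here. No strand-specific step is named, so reads of overlapping genes cannot be told apart. The deposited 0/1 column headed Best was undescribed (no score or other unit is given) and not used.

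The counts of all 28644 rows were tested with edgeR 4.0.16 in R 4.3.3 (quasi-likelihood F-test, default filter on low counts, TMM, no covariate, 2 mutants against 3 controls), with Benjamini-Hochberg adjustment over 19353 rows. Read totals per library lay between 8730268 and 13356901 with 1 row per gene. CPM were computed from TMM-scaled totals over the 19353 rows tested, not from these totals. Reads shared by several transcript rows of a gene can count more than once there. The SE was taken as |log2 fold change| over the root of the F statistic. The fit was tested on simulated data. Alternatives used limma 3.58.1 and DESeq2 1.42.0, and limma on log2(FPKM + 1) or log2(FPKM + 0.1). A gene was represented by its row of highest mean count, and 41 date-like symbols were renamed by transcript.

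The members and lists were chosen with earlier results of these data known. Named genes were all members, the 5 other family genes, up to 6 called genes of each pathway list (at least 2 named), the gene with the most reads in each marker list, and Dnmt1, Mki67, Xist and Ddx3y. Genes whose profiles most resemble those of Areg and Egfr are in the closing section.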

Additional observations from a re-analysis of the deposited data

How the results depend on the processing

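Areg kept its direction under all 16 alternatives (log2 fold change 2.26 to 3.24), as did Ereg (1.15 to 2.33), Nrg1 (0.96 to 1.36) and Erbb3 (-0.65 to -0.46), but not always their calls. Members higher numbered 0 on FPKM with a pseudocount of 1 or 0.1 and 1 (Areg) among rows with a mean FPKM of at least 1. Members lower numbered 0 with RLE, upper-quartile, the stricter filter (CPM of at least 5 in 2 libraries), 1 row per gene, limma-voom or FPKM, and 2 with no filter (Erbb2 and Erbb3) or the exact test (Egf and Erbb3). Egfr changed sign on FPKM (0.080 with a pseudocount of 1 or the mean filter, 0.090 with 0.1) and without mutant 6 (0.034; -0.24 to 0.034 over the omissions of 1 library), without being called. Over all genes, 47, 92 and 216 were higher and 9, 11 and 74 lower on FPKM (pseudocount 1, 0.1, mean filter), so that rises made up 83.9%, 89.3% and 74.5% of calls, against 59.4%; 935 were lower with no filter. On the same 3 FPKM settings 0 genes were called in ligand release, the inhibitors and signal relay, and 0, 0 and 4 among ERK-responsive transcripts. Signal relay calls numbered 2 with RLE, upper-quartile, the stricter filter, DESeq2 or the exact test. Where FPKM settings lose calls, the cause was not tested.

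Leaving out 1 library gave 408 to 1057 genes higher and 170 to 645 lower, 1 to 3 members higher and 0 to 1 lower. Calls numbered 0 to 1 in ligand release, 1 to 3 among inhibitors, 0 to 2 in signal relay and 3 to 5 among ERK-responsive transcripts. Genes higher numbered 408 without mutant 4, 545 without mutant 6 and 537 without control 1; genes lower numbered 170, 210 and 251. Where 1 mutant remained, it was assumed to vary like the controls. No paired analysis was possible because mutants and controls share no replicate number. With 2 mutants, and 5 and 6 counts for Egf in them, small differences were not detectable.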

Other observations

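Over the 5 libraries, the genes whose log2 CPM ran most like that of Areg, among 10009 others averaging 3 or more on that scale, were Stxbp6, Tsg101 and Ambp (Pearson's r 0.998, 0.997 and 0.996), and 287 genes had an r over 0.95. For Egfr they were Clk2, Otud5 and Gm15441 (r of 0.9996, 0.999 and 0.997), and 70 genes had an r over 0.95. With 5 libraries in 2 groups such values are a description of likeness only.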
